A study of Mus musculus with 6 samples.

Results

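Induced pluripotent stem cells (iPSC) made from mouse germline stem cells (GSC) were set against those GSC, position by position, in DNA methylation. The positions compared were those that the authors had called different from 1 common reference library in the GSC library and also in both iPSC lines. Of 255689 positions called in GSC, 51381 (20.1%) met this rule, out of 448072 positions called in any library of the series. A further 26722 GSC positions were called in iPSC line 1 but not in line 2, 33644 in line 2 but not in line 1, and 143942 in neither line.

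Methylation was read by reduced representation bisulfite sequencing, which sequences CpG-rich fragments of digested DNA after bisulfite has converted unmethylated cytosines. The groups were iPSC (2 independent lines obtained from GSC by transcription factor-mediated reprogramming, per the series' title and design), gPSC (pluripotent stem cells derived from the germline, likewise 2 independent lines) and GSC (1 line). Embryonic stem cells (ESC, 1 line) are the only sample without a table of calls and are taken here to be the reference, which the tables do not name. All lines were of the OG2 strain, in which a fluorescent reporter runs under Pou5f1 regulatory sequence. The series asks by its title whether reprogramming with factors leaves an epigenetic memory. The labels name neither the factors introduced nor the passage and culture of each line. No expression was measured, so the cell types were not checked against marker expression.

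Methylation of the cytosine in CpG is copied at each division by Dnmt1 with its partner Uhrf1, and is removed by failure of that copying or through oxidation by the Tet enzymes. Germ cells carry methylation that is set anew in the germline, heavy over gene bodies and repeats and sparse over CpG-rich promoters. Pluripotent cells need Pou5f1 (Oct4) and keep the regulatory regions of their own factors accessible.

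Each value below is the authors' methylation difference in percentage points, library minus reference. The reference cancels when the GSC value is subtracted from that of an iPSC line, and that remainder is called here the iPSC minus GSC difference. Every listed value was at least 25 points in size. A position at which an iPSC line came to within 25 points of the reference is therefore not among the members, so the full extent of any return to the reference is not visible. GSC has 1 library, which enters both lines' differences. Because the positions were chosen by these values, through the authors' calls in the 3 libraries, and the named genes by the differences themselves, the iPSC minus GSC values are descriptions with no test. Coverage is not in the tables, so the depth behind a value is unknown.

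The sign of a value could not always be read as more or less methylation. Of 210 CpG in promoter sequence with both cytosines listed (the C on each strand, 1 bp apart), 210 had opposite signs in iPSC line 1, 210 in iPSC line 2 and 210 in GSC. The 2 values summed to within 5 points of 0 in 93.8%, 90% and 90% of these pairs. Among all 51381 positions, 7251 (14.1%) had a position of opposite sign within 50 bp, called an opposite neighbour below. These made up 73.9% of the positions where GSC lay below the reference and 8.23% of those where it lay above. What produced the mirrored signs was not tested. The main shares of positions are given with and without such positions further below. For single genes, opposite neighbours are stated for many but not for all.

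The promoter sequences shown next hold the most shared positions of each kind among those searched. The kinds are lower in iPSC than in GSC (Atp2c1), higher (Aknaos), close to GSC (Hnrnpk), and close to GSC without an opposite neighbour (Arl8a). The search left out an autosome, so it did not cover every promoter. The sequences shown were chosen after the values were seen. Capitals mark the bases listed in all 3 libraries, 5′ to 3′ on the gene's strand, each window running from 250 bases before to 50 bases after the RefSeq start used, in GRCm38.p6. The windows lie at chr9:105495084-105495383 on the minus strand for Atp2c1, which encodes a calcium and manganese pump of the Golgi, and at chr4:63376856-63377155 on the plus strand for Aknaos, a transcript antisense to Akna. That of Hnrnpk, an RNA-binding protein gene, lies at chr13:58402068-58402367 on the minus strand, and that of Arl8a, a small GTPase of lysosomes, at chr1:135146584-135146883 on the plus strand.
Atp2c1: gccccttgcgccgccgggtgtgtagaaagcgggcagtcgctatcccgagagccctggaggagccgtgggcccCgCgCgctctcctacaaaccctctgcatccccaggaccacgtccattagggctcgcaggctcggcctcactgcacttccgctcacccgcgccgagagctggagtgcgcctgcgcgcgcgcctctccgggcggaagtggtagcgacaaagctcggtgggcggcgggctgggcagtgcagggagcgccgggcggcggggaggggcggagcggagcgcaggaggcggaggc
Aknaos: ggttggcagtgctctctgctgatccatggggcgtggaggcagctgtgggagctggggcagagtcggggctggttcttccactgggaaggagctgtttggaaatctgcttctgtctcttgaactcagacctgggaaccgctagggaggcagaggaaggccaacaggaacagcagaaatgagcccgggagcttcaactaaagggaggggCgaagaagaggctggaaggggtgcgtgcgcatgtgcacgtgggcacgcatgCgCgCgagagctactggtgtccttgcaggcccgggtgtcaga
Hnrnpk: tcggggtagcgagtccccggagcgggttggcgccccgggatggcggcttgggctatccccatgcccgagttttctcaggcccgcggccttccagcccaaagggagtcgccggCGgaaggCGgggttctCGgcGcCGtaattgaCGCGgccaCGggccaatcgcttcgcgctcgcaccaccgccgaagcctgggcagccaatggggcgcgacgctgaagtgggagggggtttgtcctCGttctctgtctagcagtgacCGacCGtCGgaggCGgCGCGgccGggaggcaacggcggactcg
Arl8a: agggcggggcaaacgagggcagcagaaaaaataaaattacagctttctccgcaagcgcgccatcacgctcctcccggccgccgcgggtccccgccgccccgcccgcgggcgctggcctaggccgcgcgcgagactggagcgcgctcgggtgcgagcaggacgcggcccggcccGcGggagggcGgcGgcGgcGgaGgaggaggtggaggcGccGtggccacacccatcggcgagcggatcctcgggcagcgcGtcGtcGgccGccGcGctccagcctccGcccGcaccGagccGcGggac

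In the Atp2c1 window 3 of 36 CpG were listed, all at the cytosine of the gene's strand, with 41.8 points in iPSC line 1, 50 points in iPSC line 2 and 84.8 points in GSC at each of them. All 3, and 3 of the 4 listed in the Aknaos window, have an opposite neighbour. In the Aknaos window 4 of 13 CpG were listed and the sign differed between the cells. These 4 values ran between 33.9 and 52.5 points in iPSC line 1, between 28.5 and 41.8 points in iPSC line 2, and between -45.1 and -28.2 points in GSC. The Hnrnpk window, which it shares with the divergent gene Rmi1, held 30 listed bases in 16 CpG, 14 of them with both cytosines listed. Its 14 C bases lay between 29.7 and 33.7 points in iPSC line 1, between 32.9 and 35.7 points in iPSC line 2 and between 34.3 and 40.7 points in GSC. Its 16 G bases lay between -50 and -26.4 points in iPSC line 1, between -47.1 and -29.4 points in iPSC line 2 and between -48.4 and -33.6 points in GSC, the mirror of the C bases. The Arl8a window held 20 listed G bases at a median of -47.9 points in iPSC line 1, -47.9 points in iPSC line 2 and -47.9 points in GSC. At 5 of these 20 positions the value was the same in all 3 libraries to within 0.0001 points.

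At most shared positions iPSC lay on the same side of the reference as GSC, and by the median nearer to it. The median value was 54.9 points in iPSC line 1, 54.7 points in iPSC line 2 and 71.1 points in GSC, and GSC lay above the reference at 46781 positions (91.0%). The median iPSC minus GSC difference was -8.83 points for line 1 and -8.88 points for line 2 (mean -8.86, SD 0.0348, n = 2 lines). Both lines lay 25 points or more below GSC at 5083 positions (9.89%), 25 points or more above it at 252 (0.49%), and within 10 points of it at 16621 (32.3%). The remaining 29425 positions (57.3%) were between these limits or differed between the lines. The sign was opposite to that of GSC in both lines at 154 positions. Values of the 2 iPSC lines differed with an SD of 13.7 points over positions. They were less than 10 points apart at 61.1% of positions and 25 points or more apart at 7.83%. At 398 positions the smaller of the 2 decreases fell between 24 and 25 points, just short of the limit, and at 453 between 25 and 26 points.

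**Figure D1:**
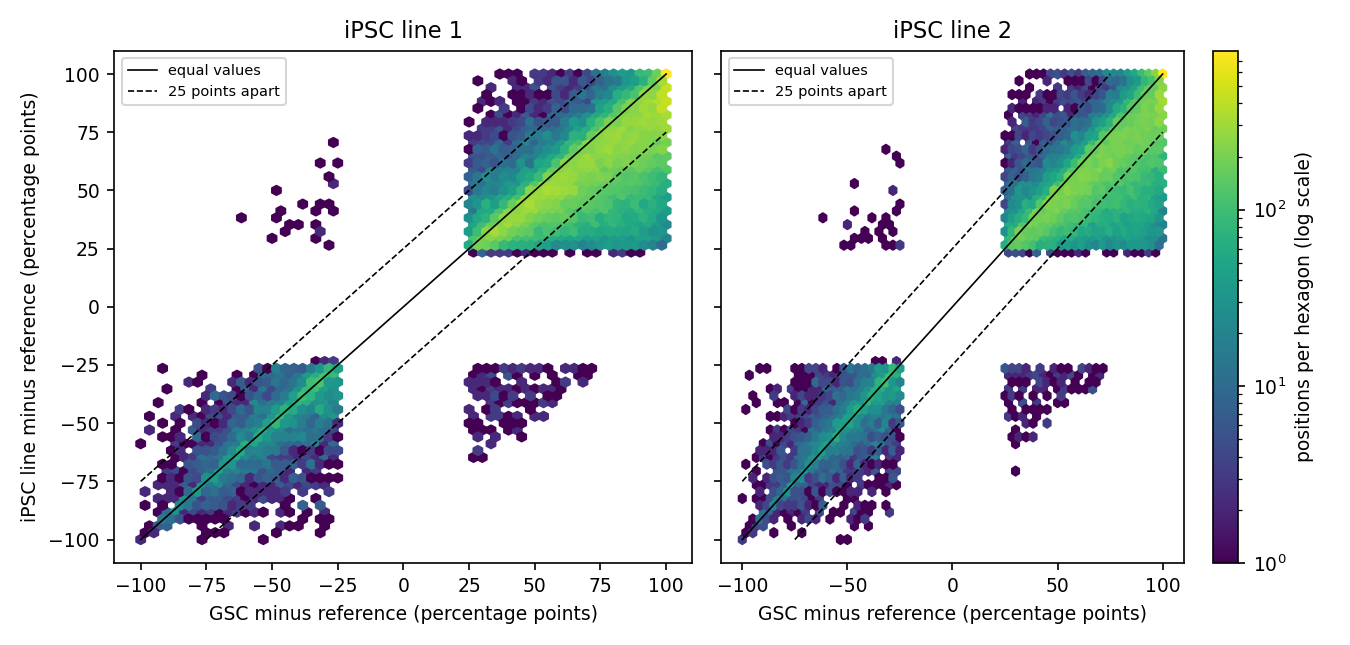
Methylation difference from the reference in iPSC line 1 (left) and iPSC line 2 (right), on the vertical axis, against the value in GSC at the same position, on the horizontal axis, both in percentage points. Colour gives the number of the 51381 shared positions per hexagon on a log scale, the solid line marks equal values and the dashed lines a gap of 25 points. Most positions lie above the reference in both and below the solid line, and the empty cross holds values under 25 points, which are not listed.

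The shares were also taken by range of the GSC value, which is itself a term of the difference: the floor limits decreases in the low range and the maximum of 100 points limits increases in the top range, so the order of the ranges is partly set by the choice of positions. Where GSC stood 75 to 100 points above the reference, 17.98% of 23082 positions were lower by 25 points or more in both iPSC lines and 19.4% were within 10 points. Where GSC stood 50 to 75 points above, 5.04% of 15371 were lower and 30.5% within 10 points. Where it stood 25 to 50 points above, 1.18% of 8328 were lower and 58.7% within 10 points. Where GSC lay below the reference, 1.33% of 4600 positions were lower, 1.13% higher and 55.9% within 10 points, against 10.7%, 0.428% and 30% where GSC lay above it. Median iPSC minus GSC differences at the positions below the reference were -0.275 points for line 1 and 0 points for line 2. There a complete lack of methylation limits decreases, and the floor limits increases towards the reference.

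**Figure D2:**
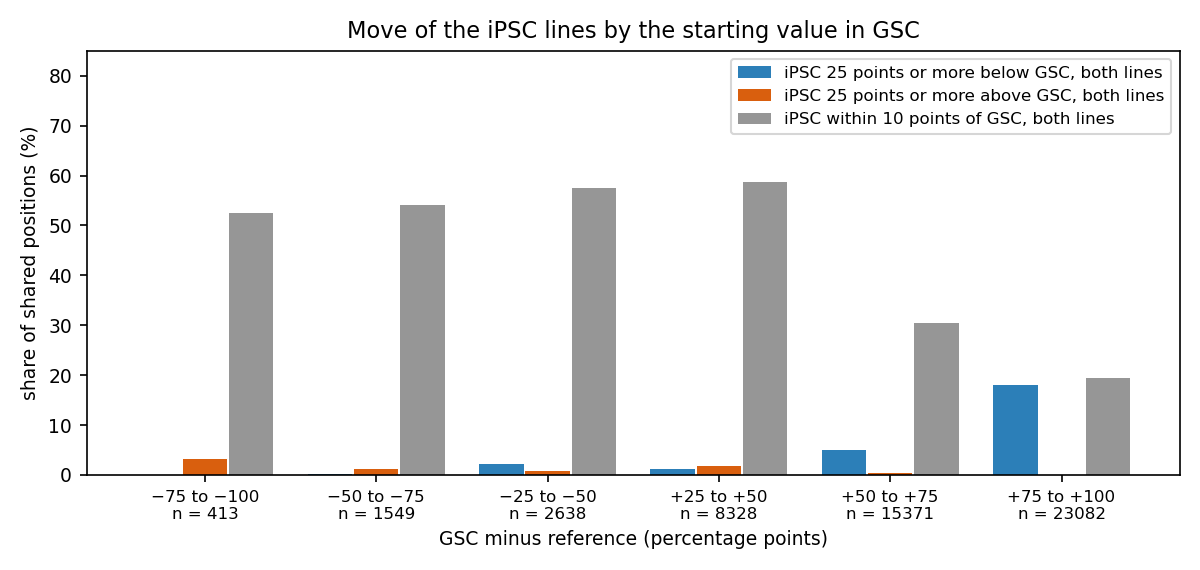
Share of shared positions, in percent, at which both iPSC lines lay 25 points or more below GSC (blue), 25 points or more above GSC (orange) or within 10 points of GSC (grey), for 6 ranges of the GSC value in percentage points, with the number of positions under each. Blue bars grow with the GSC value on the positive side and reach 17.98% in the top range, while the grey bars shrink to 19.4%.

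Absolute levels could be read at 2474 positions where GSC stood 100 points above the reference, which puts the reference at 0% and GSC at 100%. With GSC at its maximum by this choice, iPSC could only be equal or lower. The median level there was 86.4% in iPSC line 1 and 88.3% in iPSC line 2, and 4.41% and 4.12% of these positions were under 50% methylated in the 2 lines. At 1246 positions where a gPSC line stood 100 points above the reference, the median was 91.2% in iPSC line 1, 94.1% in iPSC line 2 and 100% in GSC. Values of the 3 libraries were equal to within 0.0001 points at 587 positions above the reference (1.25%) and at 385 positions below it (8.37%).

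Of 11459 genes with a shared position in the gene or up to 2000 bp upstream, 189 (1.65%) held 3 or more positions lower by 25 points or more in both lines, 7 (0.0611%) held 3 or more higher, and 1069 (9.33%) held 3 or more within 10 points. Both kinds could meet in 1 gene: 57 genes held 3 or more lower positions and also 3 or more within 10 points. At least 1 lower position was found in 2699 genes (23.6%) and at least 1 higher position in 117 (1.02%).

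Pou5f1, which encodes Oct4, the transcription factor at the core of pluripotency, had 6 of 7 shared positions lower in both iPSC lines. The position at 35506285 on chromosome 17 is both exon and promoter by the authors' feature column and lies 253 bp past the start. Its value was 55.6 points in iPSC line 1, 42.9 points in iPSC line 2 and 100 points in GSC. At 35507799 it was 41.2 and 32.2 points in the iPSC lines against 97.4 points in GSC. None of the iPSC values in this gene reached its GSC value. At 35507246 and 35509992 the sign itself differed, with -52.8 and -31.7 points and then -36.8 and -48.7 points in the iPSC lines, against 43.3 and 40.3 points in GSC, but 3 of the 6 lower positions, these included, have an opposite neighbour. The OG2 reporter carries Pou5f1 regulatory sequence, and whether its copies add reads at these positions was not tested. The mean over the 6 positions was 17.2 points in iPSC line 1 and 15.1 points in iPSC line 2, against 75.9 points in GSC, a difference of -59.8 ± 1.44 points (SD, n = 2 lines). Over the 3 lower positions without an opposite neighbour the mean was 51.0 points in iPSC line 1 and 41.2 points in iPSC line 2, against 99.1 points in GSC, a difference of -53.0 ± 6.89 points.

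Banp, which encodes a nuclear factor that binds unmethylated CpG motifs, held the most lower positions, 10 of 19. They lie within 92 bp of an intron, chr8:121973975-121974066, with no opposite neighbour. GSC stood at 100 points at most of them, so these values are methylation levels in percent there. The 10 positions averaged 65.1 points in iPSC line 1 and 56.8 points in iPSC line 2, against 97.7 points in GSC. At 121983452, further along the same gene, iPSC had 90.3 and 83.3 points against 90 points in GSC, within 10 points of each other.

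Zfp996, a zinc finger gene, had all 6 of its shared positions lower, within 98 bp starting 410 bp past its start on chromosome 12. They averaged 43.2 points in iPSC line 1 and 51.4 points in iPSC line 2, against 84.4 points in GSC. Dll4, a Notch ligand gene, had 6 of 7 lower, averaging 39.3 and 42.7 points in the iPSC lines against 83.2 points in GSC. For Celsr2, a cadherin of planar cell polarity, 6 of 19 positions were lower, 4 of them 708 to 786 bp past the start, and its 6 averaged 37.7 and 38.3 points in iPSC against 73.6 points in GSC. In none of Zfp996, Dll4 and Celsr2 did a lower position have an opposite neighbour.

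Camta1, a large gene for a calmodulin-binding transcription activator, joined both kinds: 9 of its 59 positions were lower and 14 within 10 points. The 9 averaged 38.9 and 33.2 points in the iPSC lines against 82.8 points in GSC, and 14 within 10 points averaged 54.2 and 53.3 points against 57.7 points in GSC. Zfp423 (a zinc finger regulator of adipocyte commitment), Klc1 (a kinesin light chain) and Bahcc1 (a chromatin reader with a BAH domain) each had 6 lower positions, of 17, 15 and 19. Their mean differences from GSC were -43.0, -44.9 and -42.0 points, and none of these positions had an opposite neighbour. Mia2, which serves export of large cargo from the endoplasmic reticulum, differs from the other 9 genes ranked first in having an opposite neighbour at every lower position. Its 9 lower positions averaged 39.6 and 40.4 points in iPSC against 71.3 points in GSC, and its 10 higher positions averaged -39.2 and -40.6 points against -71.1 points in GSC. The 10 higher positions also have one each, and iPSC lay nearer to the reference than GSC on both sides of it.

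**Figure D3:**
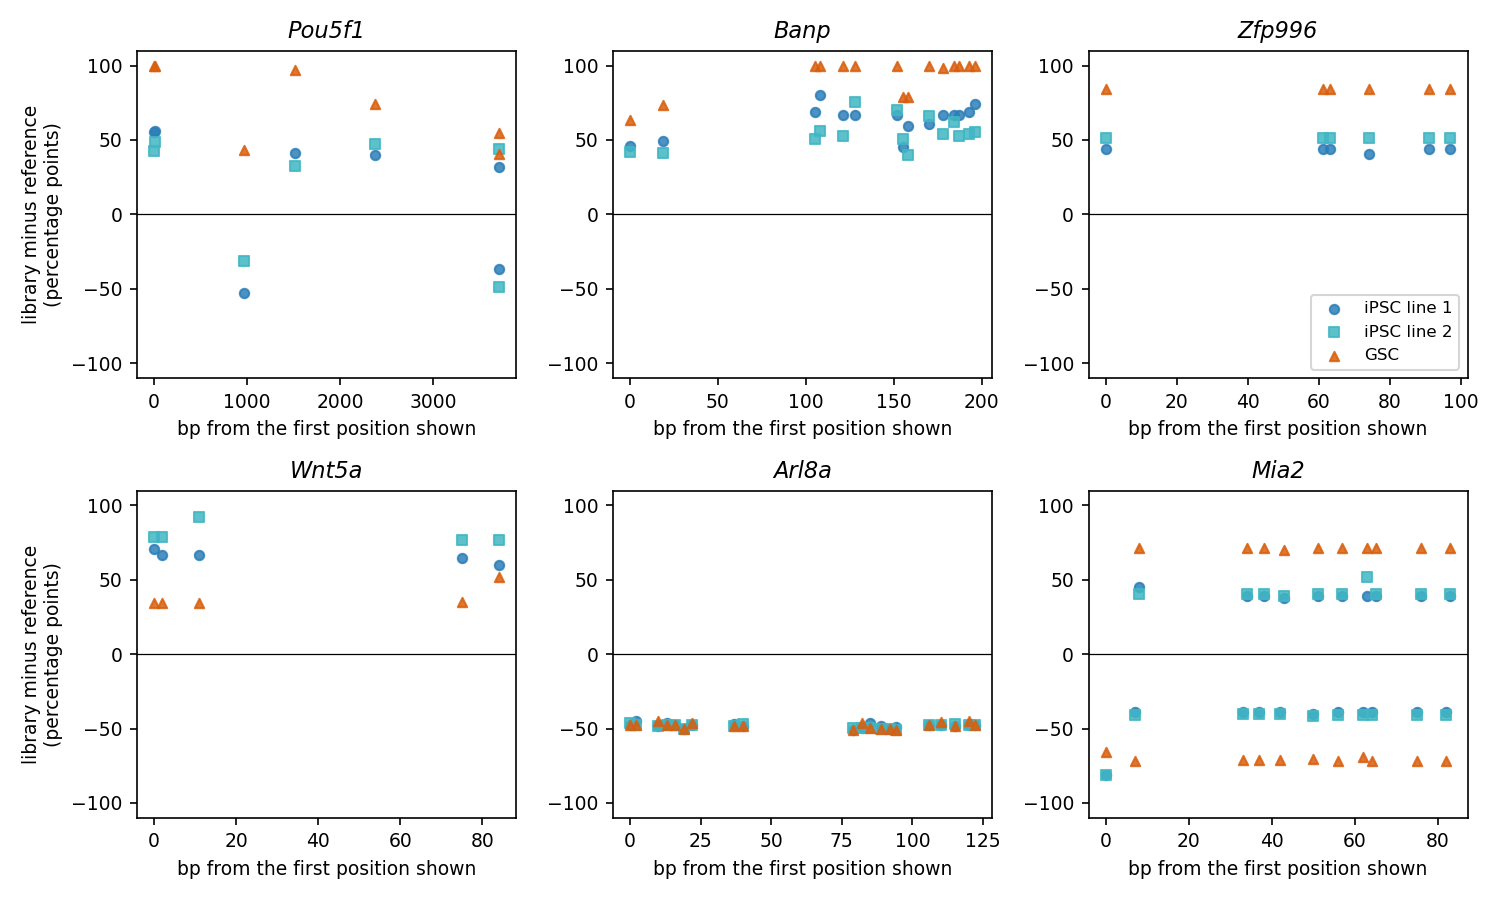
Methylation difference from the reference, in percentage points, at each shared position of Pou5f1, Zfp996, Wnt5a, Arl8a and Mia2 and at the first 15 of Banp, against the distance in bp from the first position shown. Blue circles are iPSC line 1, turquoise squares iPSC line 2 and orange triangles GSC. The iPSC lines lie below GSC in Banp and Zfp996, above it in Wnt5a, on it in Arl8a, and on both sides of 0 in Mia2.

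Genes with higher positions were few. Wnt5a, whose protein signals mainly outside the β-catenin branch of the Wnt pathway, was the one of the 7 that remained when positions with an opposite neighbour within 50 bp were left out. Its 4 higher positions form 2 clusters, and with positions within 50 bp counted once 0 genes had 3 or more. At 28504727 on chromosome 14, in a promoter by the authors' feature column, it had 70.9 points in iPSC line 1 and 78.8 points in iPSC line 2 against 34.1 points in GSC. Its 4 higher positions averaged 67.1 and 81.7 points in the iPSC lines against 34.3 points in GSC, a difference of 40.1 ± 10.3 points (SD, n = 2 lines). Gpi1, a glycolytic enzyme gene, had 68.3 and 69.3 points in iPSC against 28.3 points in GSC over 3 positions, all with an opposite neighbour. Akna, a centrosomal and chromatin protein gene, shares its 4 higher positions with Aknaos, shown above. Ggct, of glutathione breakdown, and Lurap1l had 3 higher positions each, at mean differences of 27.5 and 26.3 points.

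Among 35 pluripotency genes, 9 had a shared position and 6 of these held a lower one in both lines (66.7%, beside 23.6% of all genes): Esrrb, Klf5, Pou5f1, Prdm14, Tet1 and Tet2. The median gene of the list lay -29.3 points from GSC, beside -10.5 points over all genes. That gene is Nr5a2, which has 1 shared position and was not called lower. Its value was 43.4 points in iPSC line 1 and 73.8 points in iPSC line 2, against 87.9 points in GSC. Prdm14, a repressor that guards naive pluripotency, had 39.4 and 29.9 points in iPSC against 83.4 points in GSC at its 1 position. Tet1, which oxidises methylcytosine, had 51.8 and 67.9 points in the iPSC lines at its first position against 93.8 points in GSC, and 43.1 and 49.7 points at its second against 89.2 points. In Esrrb, an orphan nuclear receptor gene, 1 of 9 positions was lower, with 40.6 and 35.6 points in iPSC against 81.9 points in GSC. A further 2 were within 10 points. Klf5 had 1 of 5 lower and 2 within 10 points, and Tet2 had 1 of 3 lower. Fgf4, Nr5a2 and Sall4 had 1 shared position each, not lower in both lines. That of Fgf4, 481 bp past the start, was within 10 points, at -78.7 and -75.3 points in iPSC against -76.5 points in GSC. It has an opposite neighbour. Lower positions lay 47783 to 47831 bp past the start in Tet1, 77098 bp in Tet2 and 90913 bp in Esrrb. Of the 30 positions of the list, 12 lay below the reference in GSC or had an opposite neighbour. The list was drawn up with earlier results of these data known, and 26 of its genes had no shared position.

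Of 33 genes of the methylation machinery, 17 had a shared position, 8 a lower one (47.1%, beside 23.6% of all genes) and 0 a higher one (beside 1.02% of all genes). A position within 10 points was likewise found in 8 (47.1%, beside 51.9% of all genes). Of the 57 positions of the list, 16 lay below the reference in GSC or had an opposite neighbour. Tet1 and Tet2 are among the 8 with a lower position and were also counted in the pluripotency list. Uhrf1, the partner of Dnmt1, had 2 of 4 positions lower, among them 55.3 and 51.4 points in iPSC against 83.8 points in GSC. Dnmt1 itself had 1 of 8 lower and 2 within 10 points, and its 8 positions averaged 50.7 and 58.0 points in the iPSC lines against 65.6 points in GSC. The lower one has an opposite neighbour. Ehmt2 had 1 of 6 lower and 1 within 10 points, and Dnmt3a 0 of 4 lower and 1 within. In Dnmt3b the 1 position lay higher in both lines, at 63.6 and 46.0 points against 27.6 points in GSC. Line 2 fell short of the limit there, and the position has an opposite neighbour.

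Spermatogonial stem cell genes, those of the cells that GSC derive from, were mixed: of 21 with a shared position 6 held a lower one (28.6%, beside 23.6% of all genes), 1 a higher one (beside 1.02% of all genes) and 13 one within 10 points (61.9%, beside 51.9% of all genes). Kit, the receptor that marks differentiating spermatogonia, had both of its intronic positions lower, at 35.3 and 39.3 points in iPSC against 100 points in GSC, and at 37.0 and 41.7 points against 86.4 points in GSC. Lhx1, a homeobox gene of stem cell maintenance, had all 3 lower, averaging 32.0 and 41.8 points in the iPSC lines against 83.4 points in GSC. Of these, 1 has an opposite neighbour, and the other 2 averaged 30.3 and 48.4 points against 81.5 points in GSC. Gfra1, the GDNF co-receptor gene, had 0 of 14 lower and 6 within 10 points. All 14 positions averaged 32.8 and 37.0 points in iPSC against 43.3 points in GSC. The 6 within 10 points averaged 42.4 and 47.3 points against 46.2 points in GSC. Zbtb16, which encodes the self-renewal factor PLZF, had 1 of 18 lower and 6 within 10 points.

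Among germline genes of meiosis and the piRNA pathway, 3 of 18 had a lower position (16.7%, beside 23.6% of all genes), namely Meiob, Tdrd9 and Tex14. The median gene of this list lay -10.5 points from GSC, the same as over all genes. Tex14, needed for the bridges between germ cells, had 36.1 and 33.1 points in iPSC against 83.9 points in GSC at 87473334 on chromosome 11. Dazl, an RNA-binding germ cell gene, had 1 higher position 48 bp past its start, with 41.2 and 31.1 points in iPSC against -28.1 points in GSC, and a position of opposite sign lies within 50 bp.

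Imprinted genes had a lower position in 8 of 21 (38.1%, beside 23.6% of all genes), and the median gene lay -15.0 points from GSC, beside -10.5 points over all genes. Zdbf2, methylated on the paternal copy, had both positions lower, averaging 47.6 and 44.8 points in iPSC against 81.3 points in GSC. Both lie in an exon by the authors' feature column, 108592 to 108698 bp past the start. Whether they belong to the imprinted region was not tested. Of 18 Hox genes, 0 held a lower or a higher position (beside 23.6% and 1.02% of all genes) and 10 held one within 10 points (55.6%, beside 51.9% of all genes). The median Hox gene lay -0.647 points from GSC. Of the 32 Hox positions, 26 lay below the reference in GSC or had an opposite neighbour. Over all genes and places, 1.33% of positions of the first kind and 6.34% of the second were lower. Hoxd10 and Hoxd11 share 7 positions, all 7 within 10 points and all with an opposite neighbour. Regulators of other lineages had a lower position in 13 of 52 (25%, beside 23.6% of all genes) and one within 10 points in 37 (71.2%, beside 51.9%). Of their 252 positions, 137 lay below the reference in GSC or had an opposite neighbour. Over all genes and places, 55.9% of positions of the first kind and 38.8% of the second were within 10 points, beside 32.3% of all positions. Nkx2-1, a lung and thyroid factor, had all 16 within 10 points, all with an opposite neighbour. Runx3, of blood and neurons, had 3 of 14 lower, 1 of them with an opposite neighbour.

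Markers of cells that could accompany the cultures were counted the same way. A lower position was found in 2 of 11 feeder fibroblast genes (18.2%, Fn1 and Pdgfra), 5 of 8 testis somatic genes (62.5%, Cyp11a1, Fshr, Lhcgr, Nr5a1 and Wt1) and 3 of 17 clustered protocadherin genes (17.6%), which share positions, beside 23.6% of all genes. The share among testis somatic genes is close to that of the pluripotency list, and they held a median of 4.5 shared positions per gene, beside 2 over all genes. The median genes of these lists lay -8.68, -14.8 and -8.17 points from GSC. The part that other cells in the GSC culture have in any difference was not tested.

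**Figure D4:**
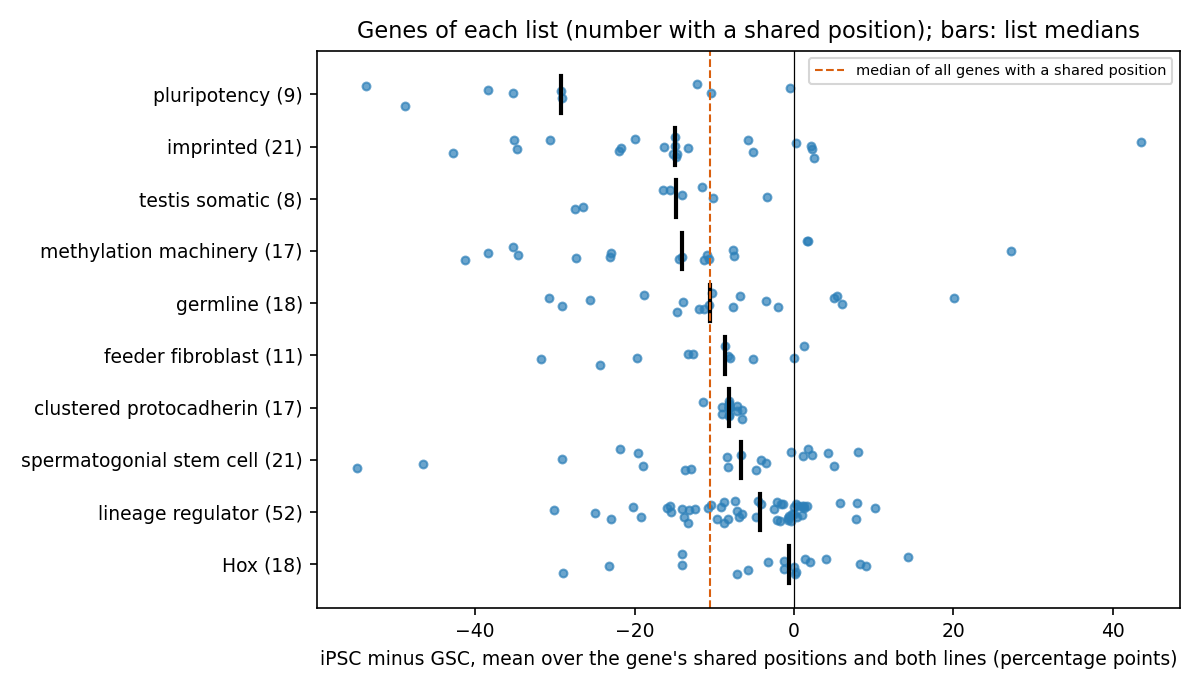
Mean iPSC minus GSC difference of each listed gene, in percentage points over its shared positions and both lines (points), by gene list, with the number of genes with a shared position in brackets. Black bars are list medians and the dashed line is the median of all genes with a shared position, -10.5 points. Medians run between -29.3 points for pluripotency genes and -0.647 points for Hox genes, and the points of most lists spread over both sides of the dashed line.

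Among genes whose iPSC values lay close to GSC above the reference, most of those ranked first are large, and rank followed the count of such positions. Over all shared positions 32.3% were within 10 points, and 30% of those where GSC lay above the reference. Wwox, Atxn1 and Prdm16 came near these shares, and Camta1, with 14 of 59, lay below them. Filip1, of a filamin-interacting protein, had 23 of 51 positions within 10 points and 0 lower, averaging 54.9 points in iPSC line 1 and 51.3 points in iPSC line 2 against 55.6 points in GSC. Wwox, an oxidoreductase gene at a fragile site, had 20 of 55 within and 4 lower. S100a7l2, of the S100 calcium-binding family, is small and had 18 of 29 within at a higher level, 74.2 and 73.9 points in iPSC against 75.8 points in GSC. Cdh13 (an anchored cadherin), Atxn1 (ataxin) and Chst9 (a sulfotransferase) had 18 of 35, 15 of 39 and 18 of 27 within and 0 lower. Mgat5b, a glycosyltransferase gene, had 28 of 31 within, of which 11 lay below the reference, and Col23a1, of a transmembrane collagen, had 24 of 35, of which 8 lay below it. Their positions above the reference included 13 and 7 with an opposite neighbour. Prdm16, a regulator of brown fat and haematopoiesis, had 14 of 36 within and 3 lower, 1 of the lower with an opposite neighbour.

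Genes close to GSC below the reference held their positions near the start. A library below the reference can fall no further than to a complete lack of methylation, which limits differences from GSC there. How near these positions were to that limit is not visible, as levels are not listed. Besides Arl8a and the shared start of Hnrnpk and Rmi1, Mta1, a subunit of the NuRD complex, had 13 such positions in a stretch of 47 bp upstream of its start, at -60.1 and -57.2 points in the iPSC lines against -59.9 points in GSC. Gas5, a noncoding host of small nucleolar RNAs, shares 13 such positions with Zbtb37, at -33.1 and -30.9 points in iPSC against -32.1 points in GSC. Rpl26, a ribosomal protein gene, had 11 of 11, at -47.9 and -53.3 points in iPSC against -53.4 points in GSC. Tent4b, a noncanonical poly(A) polymerase gene, had 17 of 19 within 10 points, 16 of them below the reference, and 11 of its 19 positions had equal values in all 3 libraries. Ppp2r2d, a phosphatase subunit gene, had 12 of 12 and Ano6, a phospholipid scramblase gene, 11 of 12, with 10 and 6 of them beside an opposite neighbour.

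By place, the 26324 positions in gene bodies were lower in 11.6% and within 10 points in 29.9%, and the 20329 outside genes in 8.60% and 32.7%. The 4728 positions from 2000 bp before to 500 bp after a gene start were lower in 5.82% and within 10 points in 44.7%, but 55.1% of them had an opposite neighbour. Without those, 10.5% of the 2125 left were lower and 44.0% within. Median differences of the 19 autosomes ran between -10.6 and -7.99 points, with -7.34 points on X (2297 positions) and -4.14 points on Y (105 of the positions). Of 2667 clusters of 3 or more shared positions with gaps of at most 50 bp, 23 were lower throughout and 3 higher throughout. The longest lower one, 12 positions at chr9:72133220-72133308 outside any gene, averaged -66.6 and -72.9 points in iPSC against -31.6 points in GSC, all with an opposite neighbour. In Hcn2, a pacemaker channel gene, 4 positions in a row averaged 35.6 and 31.8 points in iPSC against 91.6 points in GSC, also with opposite neighbours.

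Both kinds of pluripotent line could be set against GSC at the 32943 positions called in all 5 libraries. There the iPSC lines lay 25 points or more below GSC at 19.15% and 19.06% of positions, and the gPSC lines at 8.82% and 12.4%. The mean difference between iPSC and gPSC was 8.49 percentage points, with both iPSC lines above both gPSC lines. The two-sided exact permutation test gave p = 0.3333, and 0.3333 after Benjamini-Hochberg adjustment over 4 measures. No smaller p is possible with 2 lines against 2, and the positions were chosen by calls in these same libraries, so the difference is given as a description. Positions within 10 points of GSC made up 46.2% and 46.0% in iPSC and 60.3% and 52.9% in gPSC. The GSC library is common to all 4 lines. At Kit and Tet1 the values of gPSC lay between those of iPSC and GSC: 82.5 points in gPSC line 1 at the first Kit position, and 78.6 and 87.8 points in the gPSC lines at the first Tet1 position. In Pou5f1 at 35506285 the gPSC lines had 50 and 42.3 points, inside or next to the range of iPSC. Over the 10 lower positions of Banp the medians were 66.7 and 54.0 points in the iPSC lines, 48.9 points in gPSC line 1 (9 of the positions) and 68.5 points in gPSC line 2, against 100 points in GSC, so the gPSC lines lay on both sides of the iPSC lines.

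**Figure D5:**
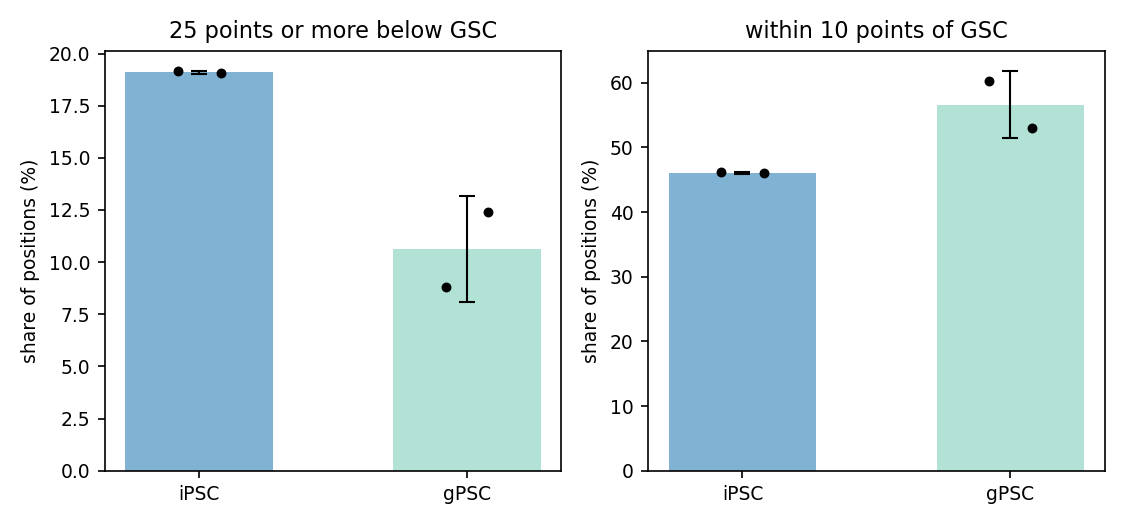
Share of the 32943 positions called in all 5 libraries, in percent, that lay 25 points or more below GSC (left) or within 10 points of GSC (right), for iPSC and gPSC. Bars are means of 2 lines, points the lines and error bars the SD over 2 lines. Both iPSC points lie above both gPSC points on the left, with means of 19.11% and 10.6%, and below them on the right, with means of 46.1% and 56.6%.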

How the data were processed

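The 10 tables used, a higher and a lower one for each of 5 libraries, list single positions. The p-value and the q-value of each were computed and deposited by the authors, as was the difference in percentage points from the reference. In these tables q never exceeded 0.01 and no difference was under 25 points in size, so they hold calls alone, without coverage or levels. Bismark, Bowtie2, GATK, methylKit and the build GRCm38 appear, without roles or settings, in the submitters' processing notes. Coverage minimums and strand merging: not given in the sources used here.

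Positions were joined on chromosome and position, and the GSC value was subtracted from that of each iPSC line, with pandas 2.3.3. A call needed both lines: 25 points or more lower or higher, or within 10 points. Genes were assigned by coordinates from a GRCm38.p6 RefSeq table (gene span plus 2000 bp upstream where strand was known), in place of the deposited gene column that had been planned, whose accessions could not be paired with symbols here. The deposited feature column mostly covers plus-strand genes: 86.0% of positions in bodies of plus-strand genes have a feature, against 17.3% for minus-strand genes. Promoter sequences are RefSeq's. Of 1581 positions in them, 1578 were the C or G of a CpG.

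Named genes are, for each of 4 kinds, the 10 with the most such positions (minimum 3, ties to the larger difference), leaving out predicted and small RNA genes, and up to 4 per list with the most positions. Prdm14, Tet1, Fgf4, Nr5a2, Sall4, Uhrf1, Dnmt3b, Kit, Lhx1, Tex14, Zdbf2, Runx3 and Hcn2 were added after their values were seen. The members and lists were chosen with earlier results of these data known. The calling was run on simulated moves well past the limit, with less noise than there was between the iPSC lines. Errors near the limit were not tested that way. Lines of a kind are independent per the series' design. The 4 measures tested, all of iPSC against gPSC lines, used an exact permutation test. Alternatives left out positions with opposite neighbours, changed the limits and q, counted positions within 50 bp once, or left out a line.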

Additional observations from a re-analysis of the deposited data

How the results depend on the processing

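Of 72 values under the alternatives run, 16 were counted as kept and 56 as moved. Shares and medians were kept if within the line-to-line spread, and gene counts if within 1.5 times the main count. The iPSC minus gPSC share was counted as kept whenever its sign held, so all its values are among the 16. No sign was reversed. Shares and gene counts cannot be negative, so only the median and the iPSC minus gPSC share could have reversed. In the order lower, higher and within 10 points, the shares of positions were 9.89%, 0.49% and 32.3% and the genes with 3 or more 189, 7 and 1069, with a median of -8.86 points. Without positions with an opposite one 1 bp away, lower positions made up 10.5%, those within 31.6%, the median was -9.66 points and 4 genes were higher; within 50 bp these were 10.5%, 31.3% and -9.85 points, with 0.433% higher and 1 gene. At a q of 0.001 or less the shares were 9.60%, 0.36% and 34.0%, the median -8.71 points and the genes 94, 3 and 705. Averaging the lines instead of requiring both gave 16.5%, 0.835% and 47.7%, and 418, 15 and 1774 genes. Counting positions within 50 bp once gave 11.2%, 0.409% and 31.0%, a median of -10.1 points, and 109, 0 and 514 genes. Without iPSC line 1 or line 2, when 1 line makes the call and positions need only that line, shares ran over 17.5 to 18.9% lower, 1.24 to 1.41% higher and 48.2 to 50.9% within, medians over -8.62 to -7.25 points, and genes over 1056 to 1079, 59 to 61 and 2954 to 3540. A limit of 20 points gave 14.9% lower (366 genes) and 0.806% higher (12 genes), and 30 points 6.57% (88 genes) and 0.313%. A limit of 5 points for closeness gave 14.4% and 322 genes, and 15 points 48.5% and 1820 genes. Comparing sizes of departure from the reference without sign, an alternative chosen after seeing the data, gave 9.60% smaller by 25 points and a median change of -8.60 points. The causes of these changes beyond the fewer or more positions that each setting admits were not tested. The iPSC minus gPSC share, 8.49 percentage points, was 6.70 to 10.3 when 1 line at a time was left out. With the line number as a replicate block it was 8.49 with an exact permutation p of 0.5; the numbers only name independent lines (correlation of deviations 0.127 over positions, 2 pairs), so they were not read as pairs. Limits are the unknown depth, the 25-point floor, 1 GSC library and the mirrored signs.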
